A study of Mus musculus with 3 samples.

Results

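CpGs methylated on one strand only were CpGs whose 2 cytosines differed sharply in 5mC: a TAPSβ level of 80% or more on 1 strand and of 20% or less on the other. They were chosen among the autosomal CpGs of the mouse genome (mm9) with 15 to 26 TAPSβ reads on each strand, at least 5 PS reads on each strand and no modified PS read on either. Of 20364700 autosomal CpGs, 3316757 met the TAPSβ depth, 3148301 of these also had the PS reads, and 3015243 had no modified PS read. Among the 3015243 CpGs, 159 were methylated on one strand only, which is 0.00527%. These 159 CpGs (members, for short) were selected on their TAPSβ levels and PS reads, so both are given as descriptions without a test.

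Genomic DNA of E14, an established mouse embryonic stem cell line, was sequenced with 3 methods and 1 library per method, without replicates. The cells were grown on gelatin in medium with 15% fetal bovine serum, LIF at 1000 units/mL and the inhibitors PD0325901 at 1 µM and CHIR99021 at 3 µM, and the line was not authenticated. TAPSβ and PS used fragments of 300 to 500 bp and CAPS used fragments of 200 to 400 bp. The autosomal levels were 57.4% in TAPSβ, 3.15% in CAPS and 0.240% in PS, at 13.1, 9.64 and 9.78 reads per listed cytosine.

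A CpG reads the same on both strands of DNA, so each CpG has 1 cytosine on each strand that can carry a methyl group. When DNA is copied, the new strand starts without methylation, and DNMT1, guided by UHRF1 to such hemimethylated CpGs, copies the mark to the new strand. A CpG that keeps the mark on a single strand is called hemimethylated. In TAPSβ, 5hmC is shielded with a glucose before TET oxidation and borane reduction, so that 5mC is read as T. CAPS reads 5hmC as T, and PS reads 5fC and 5caC as T. TAPSβ and CAPS read 5fC and 5caC as T too, so their signal is not 5mC or 5hmC alone. In all 3 methods an unmodified cytosine stays C, apart from a small share read as T. In the paper's spike-ins this share was largest in CAPS, and the levels given here are not corrected for it. A cytosine that the cells carry as T is read as T as well.

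The sequences below show the 10 CpGs with the largest strand difference, all of them methylated on the plus strand, because 4 of them lie beside a run of alternating T and G or of C and A. Each run of 42 bases is read 5′ to 3′ on the methylated strand, here the plus strand, from the mm9 reference, and capitals mark the CpG.
Intron of Slc35f4, chr14:50027484-50027525: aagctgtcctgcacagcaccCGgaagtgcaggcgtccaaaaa
Intron of Apba2, chr7:71777332-71777373: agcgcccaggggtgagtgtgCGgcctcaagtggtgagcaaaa
Outside genes, chr14:69942250-69942291: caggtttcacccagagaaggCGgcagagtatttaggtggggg
Outside genes, chr12:12088475-12088516: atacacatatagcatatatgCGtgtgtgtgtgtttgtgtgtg
Outside genes, chr3:126058696-126058737: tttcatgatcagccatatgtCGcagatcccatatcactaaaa
Outside genes, chr12:118726656-118726697: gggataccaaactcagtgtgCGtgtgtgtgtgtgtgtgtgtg
Outside genes, chr7:19792832-19792873: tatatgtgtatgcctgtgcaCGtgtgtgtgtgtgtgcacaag
Outside genes, chr1:187329858-187329899: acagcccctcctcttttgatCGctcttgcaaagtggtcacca
Intron of Ano10, chr9:122087402-122087443: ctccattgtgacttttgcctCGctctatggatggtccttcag
Outside genes, chr14:69517238-69517279: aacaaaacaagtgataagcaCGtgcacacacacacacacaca

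The largest difference, 95 points, was in an intron of Slc35f4, which encodes a member of a solute carrier family. There 19 of 20 TAPSβ reads were modified on the plus strand and 0 of 15 on the minus strand, with exact 95% intervals of 75.1 to 99.9% and 0 to 21.8%. The CpG in Apba2, which encodes an adaptor protein of neurons, had 17 of 18 modified reads on the plus strand and 1 of 16 on the minus strand. The CpG in Ano10, which encodes a protein of the anoctamin family, was modified in all 16 reads of the plus strand and in 3 of 16 reads of the minus strand. CAPS showed 0 of 9 and 0 of 9 modified reads on the 2 strands at the Slc35f4 CpG, 0 of 10 and 0 of 9 at Apba2, and 1 of 10 and 0 of 10 at Ano10. None of these 3 CpGs thus had a modified CAPS read on the unmethylated strand.

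Among the 7 CpGs outside genes, the one on chromosome 3 had 14 of 15 modified reads on the plus strand and 1 of 15 on the minus strand. The one on chromosome 1 had 18 of 19 and 2 of 15. The 2 CpGs on chromosome 14 outside genes had 17 of 18 against 1 of 16, and 13 of 16 against 0 of 15, on the plus and minus strands. The 3 CpGs with TG repeats had 14 of 16 against 0 of 19 and 17 of 17 against 3 of 18 on chromosome 12, and 14 of 16 against 1 of 21 on chromosome 7. The CpG with 17 of 17 modified TAPSβ reads also had 2 of 4 modified CAPS reads on that strand and 0 of 5 on the other, too few reads to set the strands apart.

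**Figure D1:**
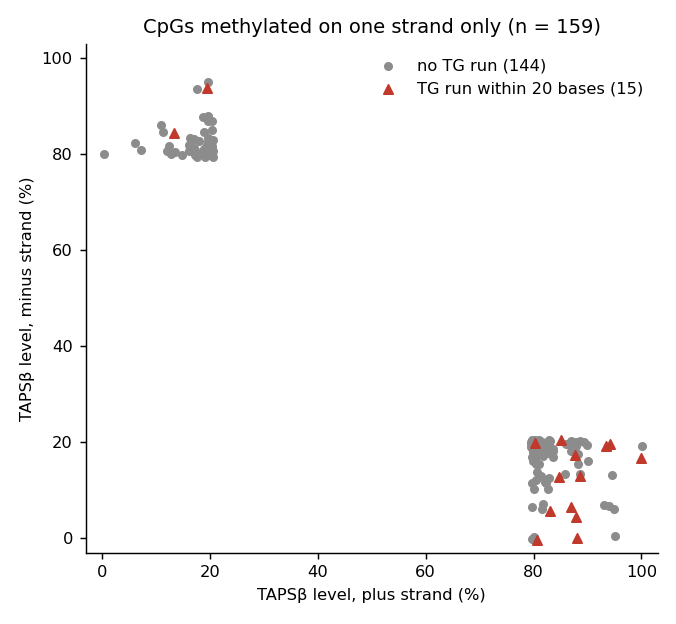
TAPSβ level on the plus strand (x axis, %) against that on the minus strand (y axis, %) for the 159 CpGs methylated on one strand only, each a point shifted slightly so that points do not hide each other. The 98 CpGs methylated on the plus strand lie at the lower right and the 61 methylated on the minus strand at the upper left, and 13 of the 15 with a TG run (triangles) are at the lower right.

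Most of the 159 CpGs lay close to the limits of the rule. The level on the methylated strand ranged from 80% to 100% with a median of 81.2%, and that on the other strand from 0% to 20% with a median of 18.8%. At 52 of the 159 the methylated strand stood at exactly 80%, and at 64 the other strand stood at exactly 20%. Only 2 CpGs were modified in every read of the methylated strand, and 6 had no modified read on the other strand. Just outside the limits lay 177 CpGs with 75% to below 80% on 1 strand and 20% or less on the other, and 243 with 80% or more on 1 strand and above 20% to 25% on the other. The median was 16 reads on each strand, which gives wide intervals: 12 of 15 modified reads, the count on the methylated strand of a CpG in Mn1, has an interval of 51.9 to 95.7%, and 0 of 17 on its other strand one of 0 to 19.5%.

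A CpG with equal levels on both strands can reach these limits through the draw of reads. For each of the 3015243 CpGs, the modified reads seen were split over the strands at random given the 2 depths (a hypergeometric split), and the chance of meeting the rule was summed. This gave 70.6 expected CpGs against the 159 observed, a ratio of 2.25 (exact Poisson 95% interval 1.92 to 2.63). Drawing each strand from the pooled level with a binomial gave 74.7 expected CpGs and a ratio of 2.13. The expected number was 44.4% of the observed one, for equal levels and independent reads. The spread between strands was wider than that over all CpGs with modified and unmodified reads (next paragraph). The 44.4% is thus not an estimate of the share of members that arose in the draw. Which members did so cannot be told. The intervals cover counting error only and treat reads as independent. Whether the overlapping mates of a read pair were counted once is not given in the sources used here. Where mates overlap, counting both could raise this ratio and the spread between strands, by an amount that was not measured here.

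The ratio rose with the difference between the strands. CpGs that differed by less than 10 points were 0.973 times as many as equal levels gave. The ratio was 1.36 for differences of 40 to 50 points, 1.61 for 50 to 60 and 2.08 for 60 to 70, where 625 CpGs were seen and 300.3 expected. From 70 to 80 points it was 3.85, with 51 CpGs against 13.3, and from 80 to 90 points 14.8, with 13 CpGs against 0.877. Over the 2574661 CpGs with modified and unmodified reads, the mean squared standardised difference between strands was 1.09, where equal levels give a value of 1.

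The strands were not equally represented. The plus strand was the methylated one at 98 of the 159 CpGs (61.6%, exact 95% interval 53.6 to 69.2%) and the minus strand at 61, while equal levels gave 35.4 and 35.2. The ratios were 2.77 (2.25 to 3.38) for the plus strand and 1.73 (1.33 to 2.23) for the minus strand. Across all 3015243 CpGs the 2 strands had the same TAPSβ level, 49.72% each. Of the 20 CpGs with the largest difference, 16 were methylated on the plus strand. At differences of 80 points or more, 13 CpGs were higher on the plus strand against 0.440 expected, and 1 was higher on the minus strand against 0.442 expected. This split by reference strand was noticed in these data and has no replicate. With the lower limit set to 10 reads, the plus strand was methylated at 1325 of 2467 CpGs (53.7%), and with levels of 75% and 25% at 439 of 827 (53.1%).

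**Figure D2:**
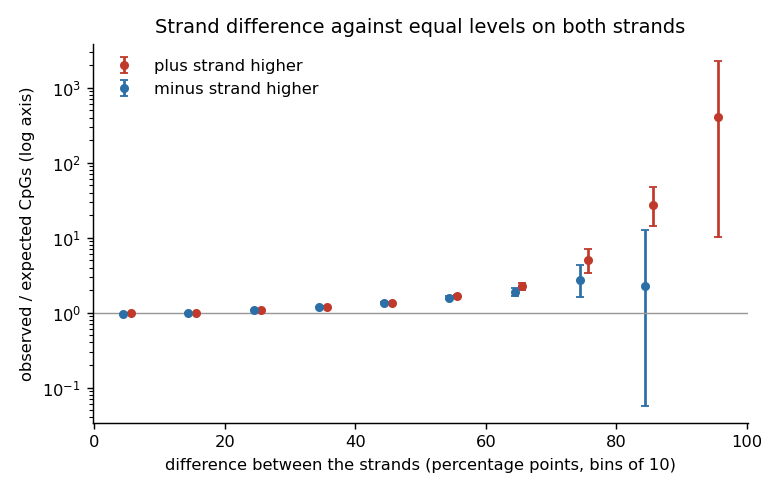
Observed over expected number of CpGs (y axis, log scale) by the difference between the strands in TAPSβ (x axis, percentage points in bins of 10), for CpGs higher on either strand, with exact Poisson 95% intervals. Bins without a CpG are left out, and CpGs without a difference are counted with the plus strand in the bin under 10 points. The ratio stays near 1 up to 30 points and rises above it. From 60 points the plus-strand points lie above the minus-strand points, at 2.27 against 1.89 in the bin of 60 to 70 points and at 4.97 against 2.72 in that of 70 to 80.

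Members beside TG repeats were few but more than expected. A TG run was defined, after the 10 sequences above had been seen, 4 of which count below, as TGTGTGTG on either strand (CACACACA when read on the other) with at most 20 bases between it and the CpG. Of the 159 CpGs, 15 had such a run (9.43%, 5.38 to 15.1%), and 144 had none, against a run at 1.30% of the 3015243 CpGs and at 1.21% of the CpGs with 40% to 60% on each strand. The run was on the methylated strand in 12 of the 15 and on the unmethylated strand in 3. Where the run was on the plus strand, 10 CpGs met the rule against 0.422 expected, and all 10 were methylated on the plus strand. Where it was on the minus strand, 5 met the rule against 0.459 expected, with the plus strand methylated at 3 of them and the minus strand at 2.

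The tightest form of this pattern was a CpG followed directly by TGTGTGTG on its methylated strand. This form, too, was chosen after sequences of members had been seen. On the plus strand 1538 CpGs had this sequence, and 8 of them met the rule against 0.0500 expected. Of these 8, 3 are among the sequences that prompted the choice. On the minus strand 1733 CpGs had it, and 1 met the rule against 0.0574 expected. Besides the 3 CpGs on chromosomes 12 and 7 shown above, the sequences of another 5 on the plus strand and of the 1 on the minus strand are printed because of this shared form, again read on the methylated strand with the CpG in capitals.
Outside genes, chr14:33557089-33557130, plus strand: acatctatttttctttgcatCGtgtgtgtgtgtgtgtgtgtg
Outside genes, chr2:165735634-165735675, plus strand: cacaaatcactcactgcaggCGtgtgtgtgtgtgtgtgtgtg
Outside genes, chr17:16878220-16878261, plus strand: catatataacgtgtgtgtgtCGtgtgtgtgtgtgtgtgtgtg
Intron of Spred2, chr11:19893599-19893640, plus strand: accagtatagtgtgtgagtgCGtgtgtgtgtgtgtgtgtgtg
Outside genes, chr15:25979793-25979834, plus strand: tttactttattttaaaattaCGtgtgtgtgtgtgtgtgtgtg
Outside genes, chr3:121638832-121638873, minus strand: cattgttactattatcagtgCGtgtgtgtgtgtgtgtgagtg

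At the CpG on chromosome 14, 15 of 18 TAPSβ reads were modified on the methylated strand and 1 of 17 on the other. The CpG on chromosome 2 had 15 of 16 and 3 of 16 modified reads, and that on chromosome 17 had 15 of 17 and 2 of 15. The CpG of Spred2, an inhibitor of Ras signalling, had 16 of 19 and 2 of 15. At the CpG on chromosome 15 the counts were 17 of 20 and 3 of 15, and at that on chromosome 3, methylated on the minus strand, 16 of 19 and 2 of 15. On the methylated strand of these 6 CpGs at most 3 reads were thus unmodified, and on the other strand at most 3 were modified. The rule allows little more at these depths, so this restates the rule. None of the 6 had a modified CAPS read on either strand. The methylated strand of each had only 4 to 8 CAPS reads, too few to set the strands apart. It had 5 to 11 PS reads. Over all CpGs with a TG run on the plus strand that passed the rule's depth and PS conditions, the plus strand had a TAPSβ level of 59.6% and the minus strand one of 59.0%. With the run on the minus strand, the minus strand had 59.3% and the plus strand 59.0%. Over all 225893 autosomal CpGs with a run on the plus strand, whether or not they passed these conditions, the mean TAPSβ depth per strand was 10.1 reads on the plus and 9.96 on the minus strand, against 12.3 on each strand of all CpGs without a run. In CAPS the 225893 CpGs had 8.46 reads on the plus and 9.22 on the minus strand, and in PS 8.40 and 8.82. The strand with the run was thus the shallower one in both. With the run on the minus strand, that strand was likewise shallower in CAPS (8.55 against 9.26) and PS (8.50 against 8.90). In TAPSβ it was the deeper one (10.1 against 9.95). Values for mapping or for the length of the repeat in these cells were not analysed here.

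Without the CpGs beside TG runs, 144 members stood against 69.7 expected, a ratio of 2.07 (1.74 to 2.43). The ratio was 2.43 (1.94 to 3.01) for the plus strand, with 85 CpGs, and 1.70 (1.29 to 2.19) for the minus strand, with 59. These intervals overlap, unlike those over all 159 members, but an overlap does not compare the strands. The plus strand was the methylated one at 59.0% of the 144, against 61.6% of the 159. At differences of 70 points or more, the plus strand was higher at 36 CpGs without a TG run and the minus strand at 17, with 6.99 and 6.98 expected.

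In the gene annotation (GENCODE M1), 93 of the 159 CpGs lay outside genes, 61 in introns, 4 in exons and 1 within 500 bp of the start of a protein-coding transcript. Against the number expected from the draw of reads in the same place, the ratio was 2.60 (2.10 to 3.18) outside genes and 2.03 (1.56 to 2.61) in introns. In exons 4 CpGs stood against 3.87 expected, a ratio of 1.03 (0.281 to 2.64). In the window around starts 1 stood against 0.862, a ratio of 1.16 (0.0294 to 6.47). Both intervals include the ratio of all members, 2.25. Starts held 10.6% of the 3015243 CpGs but 0.629% of the members. Of the 717561 CpGs at 20% or less on both strands 40.8% lay at starts, and among the CpGs with 40% to 60% on each strand the share at starts was 1.25%. Outside genes 62 members were methylated on the plus and 31 on the minus strand, and in introns 34 and 27, a contrast that was not tested.

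**Figure D3:**
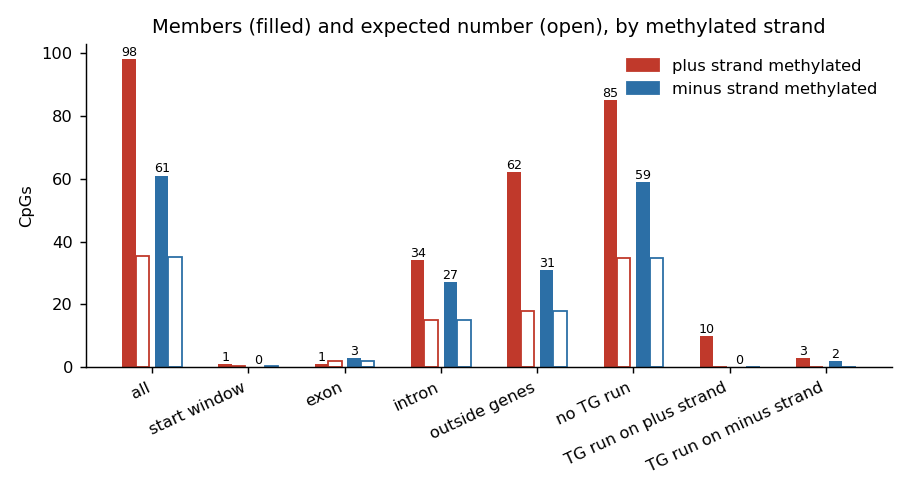
Number of CpGs methylated on one strand only (filled bars, number above) and the number expected with equal levels on both strands (open bars), for the plus and the minus strand as the methylated one, over all members, by place in the annotation and by TG run within 20 bases. Filled bars stand above open ones outside genes and in introns on both strands, and beside TG runs on the plus strand 10 CpGs face an expected number too small to see.

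The member at a start was in the coding sequence of Hes3, a transcriptional repressor of the Notch pathway, 383 bp from a start. It had 12 of 15 modified reads on the plus strand and 4 of 20 on the minus strand, the strand with the sequence of the transcript, and no modified CAPS read in 7 and 14 reads. Its sequence on the plus strand is shown as the only member near a start.
Hes3, chr4:151661766-151661807, plus strand: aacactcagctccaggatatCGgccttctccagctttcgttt
The other 2 in coding sequence were in Mn1, a regulator of transcription, and in Arhgap12, a GTPase-activating protein. The Mn1 CpG had the largest difference of the 61 CpGs methylated on the minus strand, 80 points, in a stretch with 13 other CpGs within 100 bp. Its sequence on the minus strand is shown for contrast with the plus-strand CpGs.
Mn1, chr5:111848524-111848565, minus strand: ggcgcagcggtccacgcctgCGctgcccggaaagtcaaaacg
The Arhgap12 CpG had 13 of 15 modified reads on the plus strand and 3 of 16 on the minus strand. A member in an untranslated region of Abl2, a tyrosine kinase, had 18 of 19 on the minus strand and 3 of 15 on the plus strand, and 1 lay in a noncoding exon where Gm14964 and Nrxn2 overlap. Neither the Mn1 nor the Arhgap12 CpG had a modified CAPS read, and the Abl2 CpG had 1 of 8 on the methylated strand and 2 of 7 on the other.

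Among introns, a CpG of Dicer1, the enzyme that cuts microRNA precursors, had 15 of 16 modified reads on the minus strand and 3 of 17 on the plus strand. A CpG of Eif4e3, a cap-binding protein, had 14 of 17 on the minus strand and 1 of 15 on the plus strand. Its CAPS reads were modified in 3 of 14 on the minus strand and 0 of 3 on the plus strand, too few to set the strands apart. A CpG of Nxph1, a ligand of neurexins, had 12 of 15 modified TAPSβ reads on the plus strand and 0 of 19 on the minus strand. Dicer1, Eif4e3, Nxph1, Mn1, Arhgap12 and Abl2 were named after their values had been seen. No member lay in any of the 3 gene lists examined. The genes of DNA methylation and its removal (Dnmt1, Uhrf1, the Tet genes and others, 14 of 15 matched on autosomes) held 1708 CpGs that passed, so 0 members allow a share of up to 0.176%. For pluripotency genes (17 of 18 matched) it was 0 of 1922, up to 0.156%, and for imprinted genes (39 of 40 matched) 0 of 2985, up to 0.101%. The expected numbers in the 3 lists were 0.0256, 0.0122 and 0.0628, each below 1 CpG.

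The methylated strand was the sense strand, which has the sequence of the transcript, at 41 of the 65 members in genes of a single strand (63.1%, 50.2 to 74.7%). It was the sense strand at 22 of 32 members in genes on the plus strand (68.8%) and at 19 of 33 in genes on the minus strand (57.6%). Over all CpGs that passed in such genes and differed between strands, the sense strand was the higher one at 50.4% of 1234898. This share depended on the rule: with at least 10 reads on each strand it was 605 of 1210 (50%, 47.1 to 52.9%), and with levels of 75% and 25% it was 53.2% of 387.

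Of the 159 CpGs, 40 (25.2%) had no other CpG within 100 bp, against 23.8% of the 3015243 CpGs. The median was 1 other CpG within 100 bp (range 0 to 13), as for the CpGs with 40% to 60% on each strand, while all 3015243 CpGs had a median of 2 and CpGs low on both strands of 8. The ratio of observed to expected number was 2.18 with no other CpG within 100 bp, 2.28 with 1, 2.15 with 2 to 3 and 2.51 with 4 to 7. With 8 or more there were only 2 members against 0.488 expected. No member lay within 500 bp of another, and the closest pair was 49527 bp apart, a spacing for which no chance value was computed. By chromosome the ratio ranged from 1.06 (0.343 to 2.46) on chromosome 8, with 5 members, to 4.15 (2.07 to 7.42) on chromosome 14, with 11. Both intervals include the ratio of all members, 2.25.

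The ratio also rose with depth up to 20 reads. It was 2.02 (1.65 to 2.46) where the shallower strand had 15 reads and 2.52 (1.84 to 3.36) at 16 to 17 reads. At 18 to 20 reads it was 5.54 (2.86 to 9.67), where 12 CpGs stood against 2.17. The intervals of neighbouring classes overlap. At 21 to 26 reads 0 CpGs stood against 0.146, a ratio of 0 with an interval up to 25.3. Copies of each 42-base window were counted among windows centred on a CpG of the autosomes, on either strand. Copies on other chromosomes, or in which the CpG or any other base of the window had changed, were not counted. A single count thus does not exclude similar repeat copies. By this count the window of 150 of the 159 (94.3%) occurred a single time, with a ratio of 2.22. The share among the 3015243 CpGs was close, 96.3%. The other 9, with 2 or more copies, stood against 1.33 expected for 2 to 9 copies (4 members) and 1.60 for 10 or more (5 members). CTCF, a zinc-finger protein that organises chromatin loops, binds a long motif, and the core consensus of that motif, searched on both strands, lay within 100 bp of 2 members against 1.12 expected and of 1.94% of the CpGs that passed.

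The bases at the 2 positions before and the 2 after the CpG, read on the methylated strand, were compared with the CpGs with 40% to 60% on each strand, read on the strand with the higher level. The 95% interval of the members left out the comparison value for 4 of these shares. Of the members, 27.7% (20.9 to 35.3%) had T at the second position before the CpG against 19.6%, and 22.01% (15.8 to 29.3%) had A there against 29.4%. G stood directly before the CpG at 19.5% (13.65 to 26.5%) against 13.59%, and at the second position after it at 37.7% (30.2 to 45.8%) against 29.8%. For the other shares, T directly after the CpG included (37.7% against 34.4%), the interval covered the comparison value. The intervals are not adjusted for the number of shares. These shares count the 12 members with a TG run on the methylated strand.

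Neighbouring CpGs had a smaller difference of the same direction, which decayed with distance. Within 1 to 20 bp of a member, 48 CpGs had a TAPSβ level of 62.4% (58.9 to 65.7%) on the strand on which the member was methylated and of 48.2% (44.6 to 51.8%) on the other strand, a difference of 14.2 points (9.29 to 19.01). The difference was 10.6 points at 21 to 50 bp, 9.93 at 51 to 100 bp and 3.41 (1.09 to 5.72) at 101 to 200 bp. From 201 to 500 bp it was 0.265 points (-1.05 to 1.58), within counting error. Farther out the members of the 2 strands differed. At 501 to 1000 bp it was 1.33 points (0.0758 to 2.59) for members of the plus strand. For members of the minus strand it was -2.10 points (-3.72 to -0.492) there. These intervals treat reads as independent. Within 20 bp the difference was 12.98 points for members of the plus strand, 14.9 points for members of the minus strand and 12.8 points for members without a TG run. Neighbours this close are often covered by the same reads as the member, so their levels are not an independent measurement of the strand difference.

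**Figure D4:**
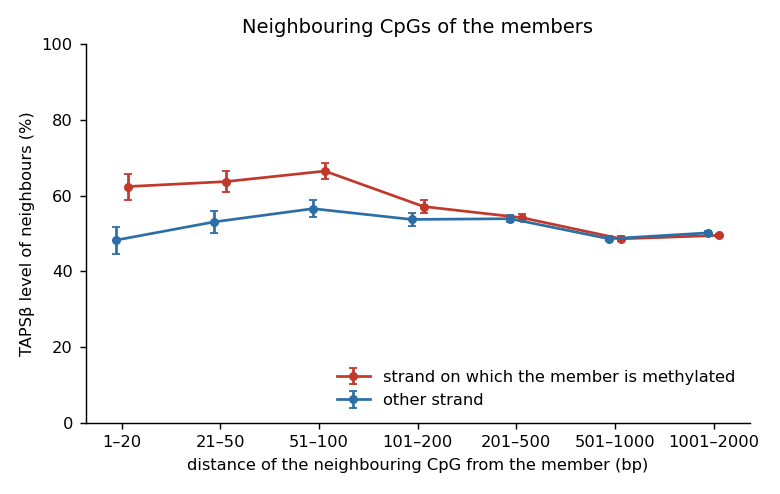
TAPSβ level (y axis, %) of CpGs near a member, summed over reads, by distance from the member in bp (x axis), on the strand on which the member was methylated and on the other strand, with exact binomial 95% intervals. The 2 lines lie 14.2 points apart within 20 bp, 3.41 points apart at 101 to 200 bp and meet from 201 bp.

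CAPS, a separate library that the rule did not use, showed no detectable difference between the strands. Summed over the 159 CpGs, the CAPS level was 3.72% on the methylated strand (62 of 1666 reads, 2.86 to 4.75%) and 3.58% on the other strand (59 of 1647 reads, 2.74 to 4.60%). The difference, other strand minus methylated strand, was -0.139 points (-1.42 to 1.14; two-sided Fisher's exact test on the reads, p = 0.853, Benjamini-Hochberg adjusted over 2 tests 0.853). At 89 of the 159 CpGs no CAPS read was modified, at 27 only the methylated strand had one, at 25 only the other strand, and at 18 both.

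Over both strands the members had a CAPS level of 3.65% (121 of 3313 reads), against 4.52% (205103 of 4541379 reads) at the 216678 CpGs with 40% to 60% on each strand. This difference of -0.864 points (-1.50 to -0.225) had a p of 0.0152 and an adjusted p of 0.0304 by the same exact test. It compares reads of 1 library and not conditions, and it treats reads of the same CpG as independent. The call was lost without the CpGs beside TG runs (-0.559 points, Fisher's exact test, p = 0.147), with 10 or more PS reads (-0.986 points, p = 0.113), and for members of the plus strand (-0.860 points, p = 0.0586) or of the minus strand alone (-0.871 points, p = 0.165). With 20 to 26 TAPSβ reads the 5 CpGs had a difference of the other sign (1.57 points, Fisher's exact test, p = 0.394). The difference was smaller, and passed, with at least 10 TAPSβ reads on each strand (-0.395 points, Fisher's exact test, p = 2.72e-05) and with levels of 75% and 25% (-0.437 points, p = 0.00544). CpGs high on both strands had 1.93% and CpGs low on both strands 2.25%.

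In CpGs with a pooled TAPSβ level of 30% to 70% whose strands differed by 10 to 60 points, the strand with the lower TAPSβ level had slightly more CAPS signal. The excess was 0.0182 points (-0.00778 to 0.0442) for TAPSβ differences under 10 points, 0.126 at 20 to 30, 0.240 (0.121 to 0.359) at 40 to 50 and 0.367 (0.0881 to 0.647) at 50 to 60. Among the 671 CpGs that differed by 60 points or more it was -0.0991 points (-0.732 to 0.534). With levels of 75% and 25% in the rule, 827 CpGs had 4.46% on the unmethylated and 3.69% on the methylated strand (0.768 points, two-sided Fisher's exact test, p = 0.0121).

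**Figure D5:**
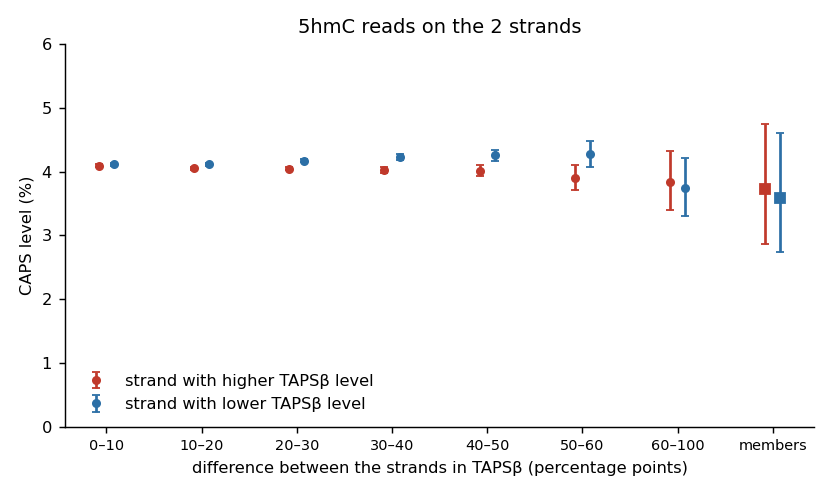
CAPS level (y axis, %) on the strand with the higher and with the lower TAPSβ level, by the difference between the strands in TAPSβ (x axis, percentage points), in CpGs with a pooled TAPSβ level of 30% to 70%, and at the 159 members (squares), with exact binomial 95% intervals. The lower strand lies above the higher one by 0.0182 points under 10 points and by 0.367 points at 50 to 60, both with overlapping intervals, and by 0.240 points at 40 to 50 with separate ones, while from 60 points and at the members the higher strand lies above the lower one within the intervals.

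The PS condition removed a set of a different kind. Before it, 322 CpGs met the TAPSβ limits, and 163 of them (50.6%) had at least 1 modified PS read. In these 163, the methylated strand had a PS level of 51.4% (1157 of 2249 reads) and the other strand 0.463% (11 of 2376 reads), and the modified PS read was on the methylated strand in 159 of the 163. CAPS read 50.1% of the methylated strand and 1.66% of the other as modified. These levels are summed over the 163 CpGs, of which 15 had a PS level under 20% on the methylated strand and 16 one of 80% or more. They are not counted among the members, and whether the cells carry T there was not tested. Their plus and minus strands were the methylated ones in 84 and 79 cases. The members had a median of 10 PS reads on the methylated and 11 on the other strand. With at least 10 PS reads on each strand, 56 CpGs stood against 24.996 expected, a ratio of 2.24.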

How the data were processed

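TAPSβ, CAPS and PS libraries of E14 mESC gDNA, 1 each, were analysed. Per cytosine of a CpG, the deposited values are raw counts of modified and of unmodified reads and the fraction modified, made by the authors without normalization after trimming with Trim Galore 0.3.1, mapping with BWA 0.7.12 to mm9, removal of duplicates with Picard 2.3.0 and calling with asTair. The deposited fraction was used only to check the counts, and no line disagreed. Whether the deposited values leave out artifact-prone regions and known E14 variants is not given in the sources used here.

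The cytosines of each CpG were paired by position in the NCBIM37 (mm9) reference. Levels were modified reads over all reads, with exact Clopper-Pearson 95% intervals, and observed over expected ratios carry exact Poisson 95% intervals. The expected number was summed over CpGs from the hypergeometric split of modified reads over the strands, and the code was tested on simulated data in which levels were equal or one-strand CpGs were planted. CAPS reads were compared by two-sided Fisher's exact tests. Genes came from GENCODE M1, with places taken in the order start window, exon, intron and outside genes. The reference marks no repeats, so these were not analysed here.

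The members, lists and tests were chosen with earlier results of these data known. The CpGs named are the 10 with the largest difference, the member near a coding start and any in the gene lists. The CpGs beside TG runs, those in other exons, and those in Dicer1, Eif4e3 and Nxph1 were named after their values were seen, and the TG runs, the copies of the 42-base window and the split by reference strand were chosen then too. Tests ran in scipy 1.17.1 and figures in matplotlib 3.10.9, under Python 3.11.15 with pandas 2.3.3 and numpy 2.4.6.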

Additional observations from a re-analysis of the deposited data

How the results depend on the processing

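With 20 to 26 reads on each strand, 5 CpGs met the rule (ratio to expected 7.30), the methylated strand was the sense strand at 0% (0 of 1), the CAPS difference between strands was 2.67 points and the CAPS difference from CpGs with 40% to 60% on each strand 1.57 points. With 10 to 26 reads the values were 2467 CpGs, 1.66, 50% (605 of 1210), 0.0874 points and -0.395 points. Levels of 75% and 25% gave 827 CpGs, 1.87, 0.768 points and, against intermediate CpGs, -0.437 points, and levels of 90% and 10% gave 4 CpGs, 88.4, 50% (1 of 2) and, with no modified CAPS read, -4.52 points against intermediate CpGs. With 10 or more PS reads there were 56 CpGs, and the CAPS difference from intermediate CpGs was -0.986 points and no longer passed (p = 0.113, Fisher's exact test). Without the condition on modified PS reads there were 322 CpGs, a ratio of 4.38, a strand difference of -27.3 points in CAPS (p = 2.74e-277, Fisher's exact test) and 11.0 points against intermediate CpGs, because the 163 CpGs described above are then included. This p counts reads and not CpGs, and it treats reads of the same CpG as independent. The CAPS difference between strands was also of the other sign, and far from passing, with at most 18 CAPS and PS reads per strand (0.346 points), with 5 or more CAPS reads (0.344 points) and without CpGs beside TG runs (0.0548 points). The last setting and the split by strand were added after the data were seen. Without TG runs the CAPS difference from intermediate CpGs was -0.559 points. Members of the minus strand numbered 61, with a ratio of 1.73 and -0.871 points against intermediate CpGs, and those of the plus strand 98, 2.77 and -0.860 points, and none of these 3 differences passed alone. For the sense share, 9 of 12 alternatives lay within the interval of the main value, but in 7 of these 9 their own interval included 50%. Taking 1 member per 500 bp changed nothing because no members lie that close.

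No paired analysis was possible because each method has 1 library, and no replicate was left out for the same reason. Except where a change follows from its own setting, as stated above, the cause was not tested. At 15 to 26 reads per strand, members at the limits of the rule have wide intervals, those named by gene included. With 1 library per method, counting error is the only error that the intervals hold.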
